A study of Mus musculus with 27 samples.

Results

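Sterol and fatty acid synthesis was followed through 32 genes: the enzymes that turn acetyl units into cholesterol, the regulators and a transporter that set their activity, and the enzymes that build, desaturate and lengthen fatty acids. The genes were chosen by name, and a row with the same mouse symbol was found for 29 of the 32 among 16024 rows. Acat2, Msmo1 and Scd2 had no row under those symbols. A row named Sc4mol, an older symbol of Msmo1, was read beside the 29 and stayed out of every count.

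Both branches start in the cytosol from acetyl-CoA. One leads through mevalonate to squalene and cholesterol, and the other through malonyl-CoA to palmitate, which desaturases and elongases then modify. The transcription factors SREBP-1 and SREBP-2 (genes Srebf1 and Srebf2) switch these enzymes on when membrane sterol is low, and INSIG1 holds them back in the endoplasmic reticulum when sterol is high. In the lung, alveolar type II cells use the fatty acid branch to make surfactant lipid, and alveolar macrophages take that lipid up again.

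Gene expression had been measured by RNA sequencing in 27 libraries of C57BL/6 mouse lung, from 5 cell preparations of tumour and of wild-type (WT) lung. Tumours came from HKP1 cells, a cultured mouse lung cancer line, injected into the tail vein, and these lungs were collected 20 to 25 days later. Macrophages were CD11c+CD11b+ cells of tumour lung (n = 3) and CD11c+CD11b- cells of WT lung (n = 2). Monocytes were CD11b+Ly6C+ (n = 2 tumour, 2 WT), and neutrophils CD11b+Ly6G+ (n = 3 and 3). The epithelial gate was Epcam+CD11b-CD11c- (n = 3 and 3), and total lung cells were left unsorted (n = 3 and 3). The labels do not say that the libraries of a group came from different mice. All p-values therefore rest on library-to-library spread, which may in part be technical. The age of the mice is not given in the sources used here.

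Values are FPKM, fragments scaled by transcript length and by mapped fragments, as the authors deposited them. The spacing of very low values gave a relative depth for 26 libraries, from 0.835 to 1.58 with tumour macrophage replicate 1 set to 1, and 8560 to 11420 genes reached 1 FPKM per library. Tumour total lung replicate 13 had no single leading spacing. Depth was 1.25 to 1.58 in tumour and 0.835 to 0.959 in WT epithelial cells. In neutrophils it was 1.10 to 1.23 in tumour and 0.859 to 0.959 in WT libraries. In macrophages and total lung it was lower in tumour libraries. Replicates of a group correlated at 0.964 to 0.996 over all genes (Pearson, log2 scale), lowest in tumour epithelial cells. The summed level of 4 pan-leukocyte genes was 1441 FPKM or more in every library of the sorted leukocytes and at most 164 in epithelial libraries. Itgam, the gene of CD11b, was at 119 to 142 FPKM in tumour and 1.20 to 1.40 in WT macrophages, as their gates differ, and Epcam at 84.1 to 96.0 in tumour and 77.4 to 94.3 in WT epithelial cells. Ly6c and Ly6g genes were not analysed here, so that side of the monocyte and neutrophil gates was not checked.

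The promoters of Mvk, Idi1, Insig1 and Ebp are shown as a part of the 11 genes called in tumour epithelial cells, the first 3 lower and Ebp higher. That of Hmgcs1 is shown because it was the only one of the 25 listed genes with a RefSeq promoter entry that held the sterol response element TCACNCCAC. Each window runs from 250 bases before to 50 bases after the annotated start, written 5′ to 3′ on the gene's strand, from RefSeq on GRCm38.p6. Capitals mark the CCAAT box, the site read by NF-Y, on either strand (CCAAT or ATTGG), and in Hmgcs1 also the sterol element; the 2 motifs do not overlap in it.
Hmgcs1 (chr13:119690101-119690400, plus strand): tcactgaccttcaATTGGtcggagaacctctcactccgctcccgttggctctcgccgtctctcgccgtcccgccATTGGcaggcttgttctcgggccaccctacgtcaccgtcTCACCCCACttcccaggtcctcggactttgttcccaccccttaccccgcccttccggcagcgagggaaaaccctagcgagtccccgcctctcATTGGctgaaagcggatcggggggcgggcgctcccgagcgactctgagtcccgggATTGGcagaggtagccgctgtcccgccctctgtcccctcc
Mvk (chr5:114444019-114444318, plus strand): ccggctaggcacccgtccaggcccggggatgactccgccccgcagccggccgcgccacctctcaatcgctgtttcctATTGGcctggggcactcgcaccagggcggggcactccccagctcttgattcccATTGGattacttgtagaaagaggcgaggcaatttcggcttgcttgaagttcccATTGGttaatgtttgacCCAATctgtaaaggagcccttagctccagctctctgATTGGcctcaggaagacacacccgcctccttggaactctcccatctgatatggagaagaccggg
Idi1 (chr13:8885356-8885655, plus strand): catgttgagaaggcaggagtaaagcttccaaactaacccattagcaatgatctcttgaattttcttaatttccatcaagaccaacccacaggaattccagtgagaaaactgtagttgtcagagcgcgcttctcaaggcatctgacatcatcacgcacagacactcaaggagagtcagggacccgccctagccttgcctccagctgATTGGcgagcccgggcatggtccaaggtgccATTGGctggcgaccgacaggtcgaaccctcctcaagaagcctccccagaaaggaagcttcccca
Insig1 (chr5:28071162-28071461, plus strand): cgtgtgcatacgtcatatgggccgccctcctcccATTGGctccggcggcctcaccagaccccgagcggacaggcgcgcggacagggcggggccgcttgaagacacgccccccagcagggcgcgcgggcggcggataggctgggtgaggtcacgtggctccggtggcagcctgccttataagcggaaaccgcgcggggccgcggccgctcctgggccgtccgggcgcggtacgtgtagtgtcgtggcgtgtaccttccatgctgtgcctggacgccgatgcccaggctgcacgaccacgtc
Ebp (chrX:8193463-8193762, minus strand): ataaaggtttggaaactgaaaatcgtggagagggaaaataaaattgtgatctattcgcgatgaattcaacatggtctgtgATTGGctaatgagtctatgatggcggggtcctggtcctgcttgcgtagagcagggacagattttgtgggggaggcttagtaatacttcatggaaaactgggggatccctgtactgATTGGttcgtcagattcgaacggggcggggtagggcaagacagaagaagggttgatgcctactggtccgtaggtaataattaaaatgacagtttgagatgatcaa
Mvk held 5 CCAAT boxes in this window, Hmgcs1 held 4, Idi1 and Ebp held 2 each, and Insig1 held 1. A CCAAT box on either strand was in 21 of the 25 listed genes with an entry (84.0%), beside 41.1% of 27025 genes. TCACNCCAC was in 1 of the 25, beside 1.44% of genes. A gene with several promoter entries was counted once if any of them matched. The windows of Mvk, Idi1 and Insig1, which were lower in tumour epithelial cells, and that of Ebp, which was higher, all held the box. Nsdhl, Srebf1 and Acly, also called lower there, held it too. Fdps, Fdft1, Fads1 and Elovl6, called as well, either lacked the box or had no entry.

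WT epithelial cells held the highest mean of 21 of the 29 genes, and neutrophils the lowest of most, 10 in tumour and 16 in WT cells. The median gene stood at 25.5 FPKM in tumour and 31.9 FPKM in WT epithelial cells, at 12.5 and 10.9 in tumour and WT macrophages, at 8.75 and 10.4 in tumour and WT monocytes, and at 2.49 and 3.24 in tumour and WT neutrophils. Total lung lay between, at 15.0 in tumour and 13.3 in WT libraries. The highest levels were in the desaturation and elongation step: Scd1, which puts the first double bond into stearate, averaged 2315 FPKM in WT epithelial cells, and Elovl1, which lengthens very long chains, averaged 1126 FPKM there.

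A few genes left this order. Insig1 was highest in WT monocytes, at 106 ± 9.26 FPKM (SD, n = 2), above all 3 WT epithelial libraries. Sc5d, the lathosterol desaturase, was highest in WT neutrophils, at 43.7 ± 5.59 FPKM (n = 3), and its ranges there and in WT epithelial cells, at 18.9 ± 4.40 FPKM, did not overlap. Acss2, which makes acetyl-CoA from acetate, was highest in WT neutrophils too, at 15.5 ± 3.18 FPKM, although its range overlapped that of WT total lung. Mvd, the mevalonate diphosphate decarboxylase, was highest in WT macrophages at 32 ± 4.14 FPKM (n = 2), and Fdft1, the squalene synthase, and Dhcr7, the last reductase of the pathway, in tumour macrophages. Ebp, a sterol isomerase, and Elovl6, which lengthens palmitate, were highest in tumour epithelial cells.

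**Figure D1:**
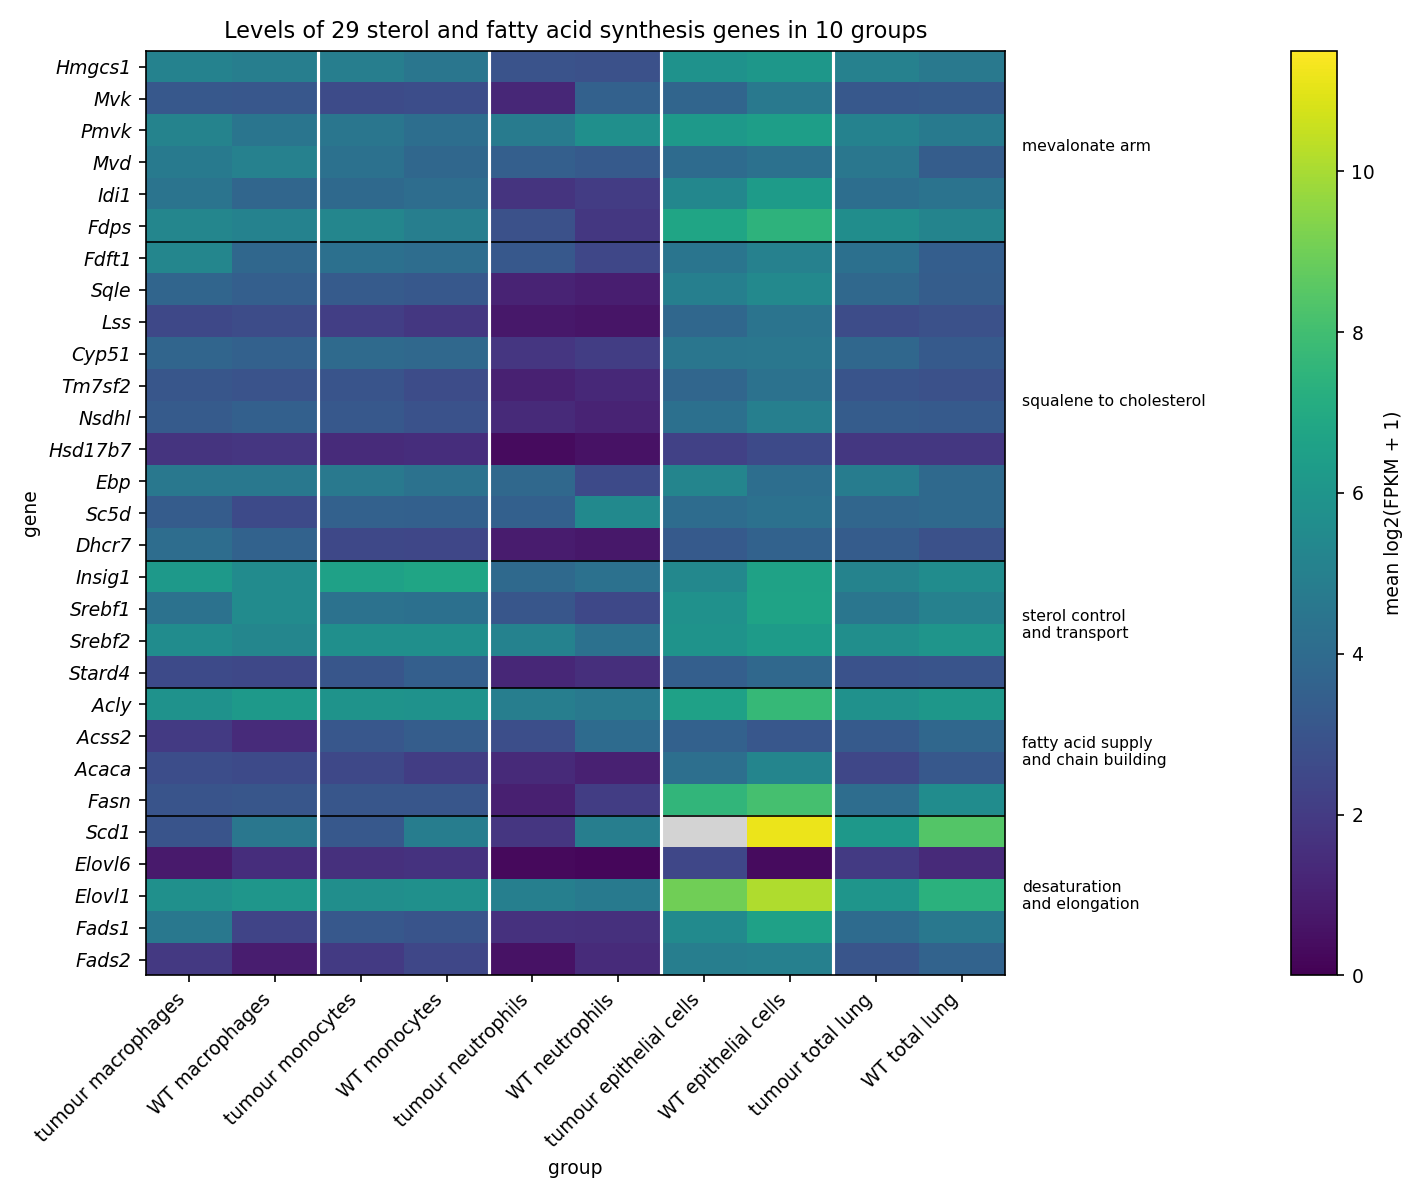
Mean log2(FPKM + 1) of each of the 29 genes (rows, grouped by pathway step) in each of the 10 groups (columns, tumour left of WT); the grey cell is Scd1 in tumour epithelial cells, listed at 0 and left out. The 2 epithelial columns are the brightest, with WT epithelial cells highest for 21 genes, and a neutrophil column is the darkest for most genes, although WT neutrophils are highest for Sc5d and Acss2.

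Over the 10 group means, most sterol enzymes moved together. The correlation of a sterol enzyme with the mean of the other sterol enzymes had a median of 0.95 (Pearson, log2 means, n = 10 groups, pairs of which share a cell type, so only a description), and it reached 0.99 for Sqle, the squalene epoxidase. Sc5d was the exception at -0.24, followed by Pmvk at 0.39 and Mvd at 0.55. With Srebf1 the median was 0.88 for the 16 sterol enzymes and 0.82 for the 9 fatty acid enzymes, and with Srebf2 it was 0.83 and 0.74.

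WT macrophages were set against WT neutrophils and WT epithelial cells to place them on this scale. Each comparison used limma on log2(FPKM + 1), and a gene was called at a Benjamini-Hochberg adjusted p under 0.05 over all genes tested. Against WT neutrophils, 23 of 29 genes were higher in WT macrophages and 4 lower, beside 61.2% and 22.6% of all genes tested. The median gene of the whole table was itself 0.81 higher on the log2 scale in that comparison, beside a median of 1.37 for the 29 genes. Quantile normalization moved the median of the whole table to 0.14; Fads1 and Stard4 changed sign under that normalization. Fdps, the farnesyl diphosphate synthase, stood at 33.7 FPKM in WT macrophages and 2.72 in WT neutrophils (log2 difference 3.23 ± 0.21 SE, adjusted p = 4.12e-06), and Srebf1 at 45.4 and 4.68 (3.05 ± 0.18, adjusted p = 2.46e-06). The 4 lower genes were Pmvk, Sc5d, Acss2 and Fads2. Fads2 passed the filter through WT neutrophils alone, and Lss, Hsd17b7 and Elovl6, all higher, through WT macrophages alone.

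Against WT epithelial cells the order turned: 2 of 29 genes were higher in WT macrophages and 24 lower, beside 22.7% and 41.3% of all genes. The median of the 29 was -1.5, and of all genes -0.29. The widest gaps were in the fatty acid branch. Scd1 had 22.4 FPKM in WT macrophages and 2315 in WT epithelial cells (log2 difference -6.60 ± 0.22), Fasn, the fatty acid synthase, 7.37 and 275 (-5.03 ± 0.16), and Fads1, the delta-5 desaturase of polyunsaturated fatty acids, 4.16 and 95.1 (-4.20 ± 0.19). All 3 passed, with adjusted p-values of 2.4e-06, 2.26e-06 and 6.17e-06. Mvd and Elovl6 were the 2 higher genes, and Elovl6 passed the filter through WT macrophages alone. Fads2, among the 24 lower genes, passed it through WT epithelial cells alone. Leaving out either WT macrophage replicate left no higher gene, since Mvd lost its call and Elovl6 no longer passed the filter, and leaving out WT epithelial replicate 8 or 10 left 1.

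In tumour macrophages 6 of the 29 genes were higher than in WT macrophages and 4 lower, beside 20.2% and 17.7% of the 10113 genes tested, so the share called was near that of all genes. By pathway step, of the 16 sterol enzymes 4 were higher and none lower, whereas of the 5 desaturation and elongation genes 1 was higher and 3 lower, and none of the 4 genes of fatty acid supply and chain building passed. The difference between steps was not tested. The median change was 0.15 on the log2 scale for the 29 genes and 0.00 for all genes (to 2 decimals).

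Fads1 changed most. It had 22.0, 21.3 and 26.4 FPKM in tumour macrophages, against 3.81 and 4.51 FPKM in WT macrophages. The groups lay far apart (log2 change 2.23 ± 0.14 SE, adjusted p = 5.67e-05), and the call held under all 14 alternatives. Fads2, the delta-6 desaturase that works before it, had 4.86, 2.82 and 1.48 FPKM in tumour macrophages, against 0.851 and 0.979 in WT macrophages. Its ranges did not overlap, but it missed the threshold (0.99 ± 0.34, adjusted p = 0.0586).

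Among the sterol enzymes Fdft1 stood out, with 34.6, 33.0 and 47.7 FPKM in tumour macrophages, against 11.9 and 14.6 in WT macrophages (log2 change 1.46 ± 0.18, adjusted p = 0.0011). Its gene (chromosome 14, 63145150 to 63179578, minus strand, GRCm38) shares 774 bases with Ctsb on the other strand, the gene of the lysosomal protease cathepsin B. Ctsb averaged 1894 ± 387 FPKM in tumour macrophages and 239 ± 19.9 in WT macrophages (SD, n = 3 and 2), and the library kit does not keep strand, so reads of the shared stretch cannot be told apart. Sc5d had 8.23, 10.1 and 9.11 FPKM in tumour macrophages, against 4.51 and 5.61 in WT macrophages (0.75 ± 0.14, adjusted p = 0.00748). Dhcr7 had 15.8, 13.9 and 19.2 FPKM in tumour macrophages, against 10.9 and 11.8 in WT macrophages (0.48 ± 0.15, adjusted p = 0.043), and its call was lost under 8 of 14 alternatives, upper-quartile scaling and quantile normalization among them. In the mevalonate arm Pmvk, the phosphomevalonate kinase, had 36.9, 36.5 and 29.2 FPKM in tumour macrophages, against 18.1 and 24.4 in WT macrophages (0.67 ± 0.16, adjusted p = 0.0189).

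The regulators went both ways. Insig1 had 77.1, 73.2 and 63.2 FPKM in tumour macrophages, against 42.4 and 50.9 in WT macrophages (log2 change 0.60 ± 0.13, adjusted p = 0.0115). Srebf1 had 18.6, 18.8 and 20.4 FPKM in tumour macrophages, against 44.3 and 46.5 in WT macrophages (-1.20 ± 0.10, adjusted p = 0.000183), and its groups lay far apart. Srebf2 overlapped between the groups, at 37.0 to 61.8 FPKM in tumour and 37.6 to 39.1 in WT macrophages (adjusted p = 0.259).

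Scd1 fell to 9.66, 7.22 and 4.62 FPKM in tumour macrophages, against 23.6 and 21.1 in WT macrophages (log2 change -1.56 ± 0.26, adjusted p = 0.00375). Alveolar type II genes, 8 of 10, summed to 379, 327 and 146 FPKM in tumour and 855 and 647 in WT macrophages. Endothelial genes summed to 5.69 to 10.7 in tumour and 56.4 to 61.0 in WT macrophages. Type I genes went the other way, at 89.5 to 117 in tumour and 33.9 to 42.9 in WT macrophages. The part of other cells in the Scd1 result was not tested. Elovl1 had 52.7, 52.3 and 54.1 FPKM in tumour macrophages, against 63.6 and 66.6 in WT macrophages (-0.29 ± 0.09, adjusted p = 0.0386), a small gap whose call was lost under 5 of 14 alternatives. Elovl6 was near the filter in both groups, at 0.67 to 0.985 FPKM in tumour and 1.67 to 2.06 in WT macrophages, and was also lower. It reached 1 FPKM in WT macrophages alone, so it passed the filter through the group where it was higher. Calls for Fdft1, Fads1, Srebf1 and Scd1 held under every alternative; without WT macrophage replicate 1 only 2 higher and 2 lower genes were called, and without tumour macrophage replicate 1 or WT macrophage replicate 2 the lower genes numbered 2.

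Markers of 2 macrophage types moved with these results. The 6 alveolar macrophage genes found of 10 listed summed to 326 to 453 FPKM in tumour and 1534 to 1647 in WT macrophages, and the 8 of 8 monocyte-derived macrophage genes to 4025 to 5679 in tumour and 73.8 to 106 in WT macrophages; none was at 0 in either group. The gates took CD11b+ cells from tumour lung and CD11b- cells from WT lung, so tumour growth and the choice of cells cannot be told apart here. Fewer cells of a type and less RNA per cell cannot be told apart in any of these bulk libraries.

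The neighbouring lipid genes showed the wider setting, from lists chosen by pathway, whose counts stand beside the 20.2% of all genes higher and 17.7% lower. Of 9 tested LXR targets and cholesterol efflux genes, 2 were higher in tumour macrophages and 7 lower. Abca1, which exports cholesterol to lipid-poor apolipoprotein, averaged 65.7 ± 8.88 FPKM in tumour and 15.7 ± 2.92 in WT macrophages (log2 change 2.0, adjusted p = 0.000164), whereas Abcg1, which exports it to HDL, averaged 81.7 ± 18.2 in tumour and 299.6 ± 11.4 in WT macrophages (-1.88, adjusted p = 0.000344). Apoe was listed at 0 in all 3 tumour macrophage libraries and at 91.6 ± 1.13 FPKM in WT macrophages, and was not tested. None of 14 fatty acid oxidation genes was higher and 9 were lower, led by Pparg, a nuclear receptor that alveolar macrophages depend on, at 25.0 ± 8.82 FPKM in tumour and 124 ± 3.84 in WT macrophages (-2.32, adjusted p = 0.000578). Of 11 genes of cholesterol uptake, storage and oxidation 6 were higher and 3 lower, with Ch25h lower (-2.21) and Cyp27a1 higher (1.38), both sterol hydroxylases. Of 14 genes of fatty acid and glycerolipid synthesis 3 were higher and 3 lower, with Dgat2 lower (-1.99) and Lpcat1 higher (1.16); of 9 other SREBP pathway genes 1 was higher and 2 were lower, the phosphatidate phosphatase Lpin1 by the most (-1.49).

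**Figure D2:**
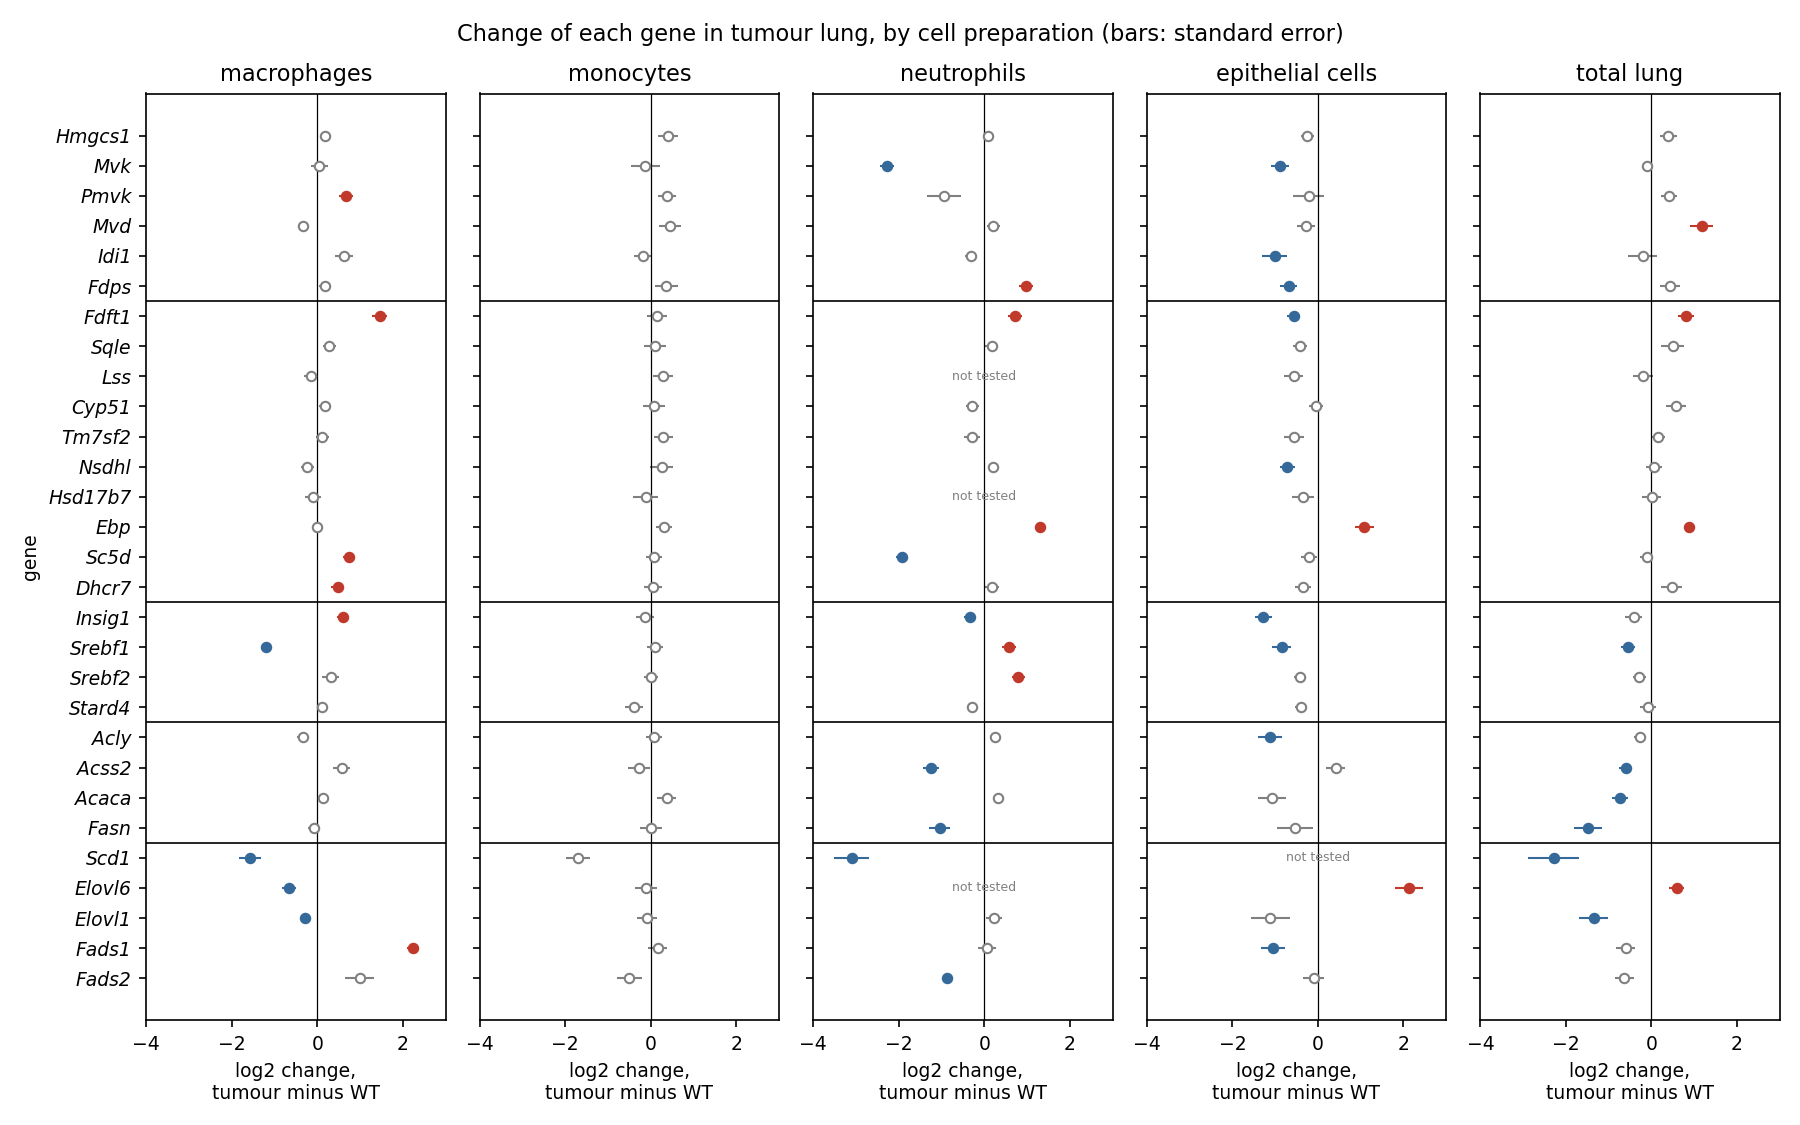
Log2 change of each gene, tumour minus WT (x axis), with its standard error, in the 5 preparations; filled red points passed as higher in tumour cells, filled blue ones as lower, and open grey ones did not pass. Ebp is red in neutrophils, epithelial cells and total lung, Scd1 is blue in macrophages, neutrophils and total lung, and monocytes have open points alone.

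In monocytes no gene passed (0 of 29 higher and 0 lower, beside 0% and 0% of the 10366 genes tested). The lowest adjusted p over all genes was 0.0911 in this comparison of 2 against 2 libraries, and 744 genes had an unadjusted p under 0.05 with a higher and 815 with a lower level in tumour monocytes. Scd1 had 7.56 and 8.55 FPKM in tumour monocytes, against 37.1 and 21.9 in WT monocytes (log2 difference -1.71 ± 0.28, unadjusted p = 0.00115, adjusted p = 0.178), so its groups did not overlap. The alveolar type II genes summed to 158 to 251 FPKM in tumour and 518 to 2453 in WT monocytes, with none at 0, and their part in that difference was not tested. Insig1 was at 82.1 and 113 FPKM in tumour monocytes and 113 and 99.7 in WT monocytes, and Srebf2 at 49.3 and 56.4 in tumour and 51.6 and 53.1 in WT monocytes, both with overlapping ranges. The median difference over the 29 genes was 0.07.

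In neutrophils 26 genes passed the filter; Lss, Hsd17b7 and Elovl6 stayed under it. Of these 26, 5 were higher in tumour neutrophils and 7 lower, beside 33.3% and 25.8% of the 9343 genes tested; without WT neutrophil replicate 7 the higher genes numbered 8. Enzymes of one chain went apart. Mvk, the mevalonate kinase, had 1.61, 1.23 and 1.49 FPKM in tumour neutrophils, against 13.4, 10.5 and 8.91 in WT neutrophils (log2 change -2.28 ± 0.16, adjusted p = 1.65e-05). Fdps, further down the chain, had 6.27, 6.92 and 5.41 FPKM in tumour neutrophils, against 1.94, 2.76 and 3.44 in WT neutrophils (0.97 ± 0.17, adjusted p = 0.00136). Pmvk, between them, spread over 13.2 to 52.4 FPKM in tumour and 41.7 to 61.0 in WT neutrophils and did not pass (adjusted p = 0.0703).

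After squalene the split went on. Ebp had 14.2, 12.7 and 14.2 FPKM in tumour neutrophils, against 5.64, 4.63 and 4.60 in WT neutrophils (log2 change 1.31 ± 0.12, adjusted p = 5.96e-05). Sc5d, the enzyme that takes its product, had 9.91, 12.2 and 10.1 FPKM in tumour neutrophils, against 38.2, 49.4 and 43.7 in WT neutrophils (-1.93 ± 0.13, adjusted p = 1.64e-05). Both gaps were far wider than the spread within groups and held under all 15 alternatives. Fdft1 had 8.19, 8.30 and 7.52 FPKM in tumour neutrophils, against 3.26, 5.02 and 5.33 in WT neutrophils (0.72 ± 0.16, adjusted p = 0.00468); Ctsb was again higher in tumour cells, at 167 ± 12.1 FPKM in tumour and 92.3 ± 10.6 in WT neutrophils (n = 3 each). Sc4mol, the sterol methyl oxidase, was lower, at 4.75 to 6.18 FPKM in tumour and 7.84 to 10.1 in WT neutrophils (-0.57, adjusted p = 0.0072).

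Both SREBP genes were higher in tumour neutrophils. Srebf2 had 37.6, 31.1 and 31.3 FPKM in tumour neutrophils, against 17.2, 16.5 and 23.0 in WT neutrophils (log2 change 0.79 ± 0.15, adjusted p = 0.00186). Srebf1 had 7.79, 7.63 and 6.66 FPKM in tumour neutrophils, against 4.59, 3.57 and 5.87 in WT neutrophils (0.57 ± 0.16, adjusted p = 0.0131), a call that quantile normalization and the replicate block ended. Insig1, at 15.0, 13.8 and 14.3 FPKM in tumour and 16.0, 21.8 and 17.8 in WT neutrophils, was barely past the threshold as lower (-0.34 ± 0.13, adjusted p = 0.049), and 8 of 15 alternatives ended the call.

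In the fatty acid branch every call in neutrophils was lower. Acss2 had 4.56, 6.76 and 6.40 FPKM in tumour neutrophils, against 18.3, 16.1 and 12 in WT neutrophils (log2 change -1.25 ± 0.18, adjusted p = 0.00054). Gss, which shares 22544 bases of gene span with Acss2 on the other strand, averaged 10.00 ± 3.51 FPKM in tumour and 19.0 ± 1.10 in WT neutrophils. Scd1 had 4.49, 1.32 and 2.33 FPKM in tumour neutrophils, against 25.4, 17.5 and 53.6 in WT neutrophils (-3.10 ± 0.41, adjusted p = 0.000323). Fasn, at 0.795 to 1.26 FPKM in tumour and 1.99 to 5.17 in WT neutrophils, and Fads2, at 0.415 to 0.541 in tumour and 1.5 to 1.88 in WT neutrophils, were lower too, both at low levels. Fads2 reached 1 FPKM in WT neutrophils alone, so it passed the filter through the group where it was higher.

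Transcripts of other cell types moved with the neutrophil groups, in both directions. The 8 alveolar type II genes found of 10 listed summed to 57.6 to 89.1 FPKM in tumour and 621 to 2254 in WT neutrophils, none at 0. Lamp3, one of them, was at 0.194, 0.164 and 0.0989 FPKM in tumour neutrophils and at 6.52, 3.54 and 13 in WT neutrophils, in which the order of the libraries was that of Scd1 and Fasn. Club cell genes, 5 of 5, summed to 7.39 to 17.8 FPKM in tumour and 184 to 1190 in WT neutrophils, endothelial genes, 8 of 8, to 11.7 to 22.4 in tumour and 68.6 to 86.3 in WT neutrophils, and B cell genes, 5 of 5, to 7.90 to 57.6 in tumour and 168 to 244 in WT neutrophils. The other way went 5 general epithelial genes, at 34.5 to 41.0 FPKM in tumour and 6.19 to 12 in WT neutrophils, and 6 alveolar macrophage genes, at 35.7 to 50.7 in tumour and 1.93 to 4.56 in WT neutrophils. Sc5d and Acss2 averaged 43.7 and 15.5 FPKM in WT neutrophils and 18.9 and 7.91 FPKM in WT epithelial cells. The part of other cells in the Scd1, Fasn, Sc5d, Acss2 and other neutrophil results was not tested.

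The other lipid lists in neutrophils were mixed, beside the 33.3% of all genes higher and 25.8% lower. Of 13 fatty acid oxidation genes 6 were higher and 1 lower, with the acyl-CoA dehydrogenase Acadl at 23.4 ± 6.10 FPKM in tumour and 5.91 ± 0.407 in WT neutrophils (log2 change 1.79, adjusted p = 7.15e-05). Of 11 fatty acid and glycerolipid genes 2 were higher and 3 lower, among them Dgat1, which makes triglyceride, at 524 ± 28.5 FPKM in tumour and 1291 ± 98.4 in WT neutrophils (-1.30, adjusted p = 7.03e-05). Of 10 genes of cholesterol uptake, storage and oxidation 3 were higher and 1 lower, led by the HDL receptor Scarb1 as higher (2.25) and the scavenger receptor Cd36 as lower (-2.12). Of 10 LXR targets 3 were higher and 4 lower, and of 8 other SREBP pathway genes 2 were higher and 3 lower.

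**Figure D3:**
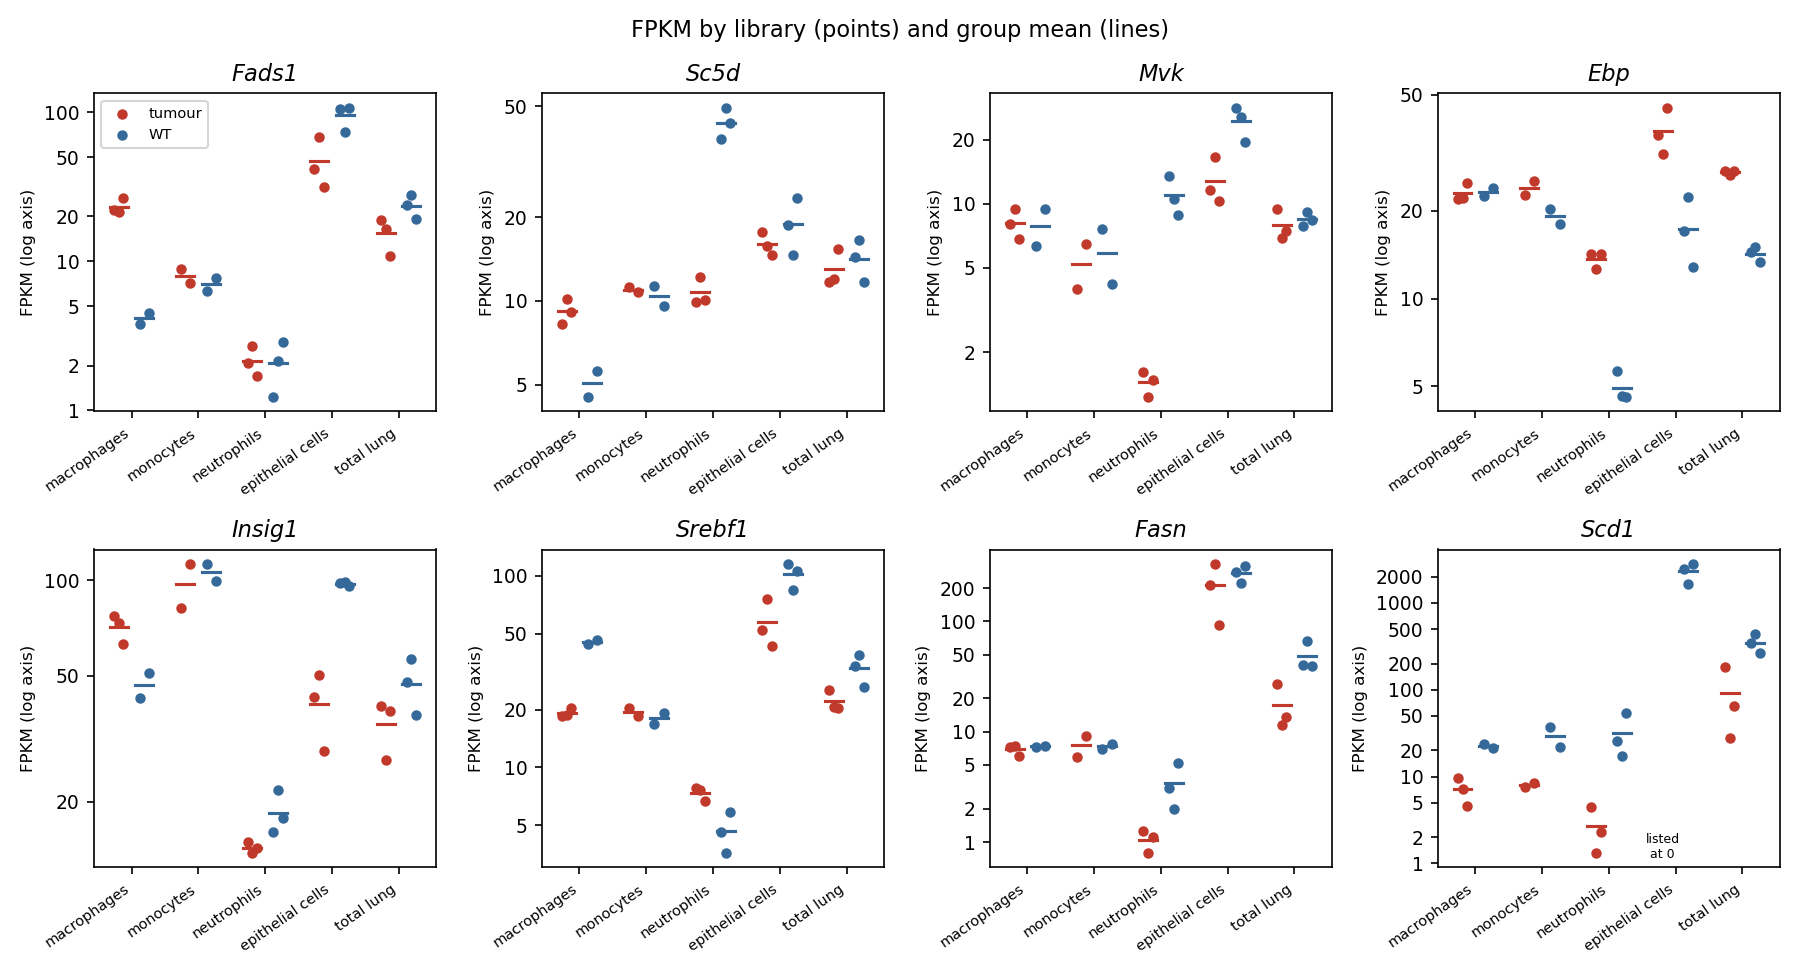
FPKM on a log axis for 8 genes in every library (points) of the 5 preparations, tumour (red) left of WT (blue), with group means as lines. Tumour points lie above WT points for Fads1 in macrophages and for Ebp in neutrophils, epithelial cells and total lung, and far below them for Sc5d and Mvk in neutrophils; Scd1 in tumour epithelial cells is listed at 0 and has no points.

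In epithelial cells 28 genes were tested, and 2 were higher in tumour cells and 9 lower, beside 14.9% and 8.86% of the 11810 genes tested. The median change was -0.48 for the 28 genes and 0.01 for all genes, which upper-quartile scaling moved to 0.13. The 9 lower genes came from every step: Mvk, Idi1 and Fdps, then Fdft1 and Nsdhl, the regulators Insig1 and Srebf1, Acly, the citrate lyase, and Fads1. This count rested on the set of libraries: 14 genes were lower without tumour epithelial replicate 10, but 1 or 2 without tumour replicate 9 or 11 or without any WT epithelial replicate, 3 with no filter and 4 after upper-quartile scaling. Ebp and Elovl6, the 2 higher genes, fell to 1 call without tumour replicate 9 or 11 or without WT replicate 8 or 10.

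Insig1 was the firmest of the lower genes. It had 42.7, 50.4 and 28.9 FPKM in tumour epithelial cells, against 98.4, 98.7 and 96.2 in WT epithelial cells (log2 change -1.28 ± 0.20, adjusted p = 0.00914), and lost its call only under the replicate block. Idi1, the isopentenyl isomerase, had 43.2, 56.7 and 23.3 FPKM in tumour epithelial cells, against 76.4, 81.2 and 77.7 in WT epithelial cells (-1.0 ± 0.29, adjusted p = 0.047). Mvk had 11.6, 16.7 and 10.4 FPKM in tumour epithelial cells, against 28.3, 25.6 and 19.5 in WT epithelial cells (-0.89 ± 0.21, adjusted p = 0.0294). In each of the 3 genes tumour replicate 10 lay nearest the WT libraries and tumour replicate 11 farthest.

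Fdps had 114, 127 and 84.5 FPKM in tumour epithelial cells, against 139, 189 and 195 in WT epithelial cells (log2 change -0.68 ± 0.20, adjusted p = 0.0479). Nsdhl, a sterol decarboxylating dehydrogenase, had 17.7, 21.1 and 15.0 FPKM in tumour epithelial cells, against 25.5, 32.8 and 31.6 in WT epithelial cells (-0.71 ± 0.17, adjusted p = 0.0275). Fdft1, at 18.3 to 23.9 FPKM in tumour and 28.8 to 37.3 in WT epithelial cells, was lower (-0.56 ± 0.16, adjusted p = 0.0412) while Ctsb averaged 171 ± 29.5 FPKM in tumour and 110 ± 8.68 in WT epithelial cells. Srebf1 had 52.4, 76.1 and 43.3 FPKM in tumour epithelial cells, against 116, 84.0 and 106 in WT epithelial cells (-0.85 ± 0.22, adjusted p = 0.0367). No pair of ranges overlapped among these 4 genes, but each call was lost when any 1 of several libraries was left out.

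Acly had 96.1, 141 and 61.8 FPKM in tumour epithelial cells, against 213, 179 and 223 in WT epithelial cells (log2 change -1.11 ± 0.28, adjusted p = 0.0327), and Fads1 had 41.6, 68.4 and 31.6 in tumour epithelial cells, against 105, 73.7 and 107 in WT epithelial cells (-1.05 ± 0.29, adjusted p = 0.04). Fasn overlapped, at 93.6 to 331 FPKM in tumour and 224 to 319 in WT epithelial cells (adjusted p = 0.377). Scd1 was at 1666 to 2812 FPKM in WT epithelial cells and listed at exactly 0 in all 3 tumour epithelial libraries; since genes such as Sftpb and Sftpc are at 0 in both epithelial groups, this was treated as missing and no change is given.

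Against the rest, Ebp had 36.2, 31.2 and 45 FPKM in tumour epithelial cells, against 17.0, 22.3 and 12.9 in WT epithelial cells (log2 change 1.08 ± 0.22, adjusted p = 0.0199). Elovl6 had 5.10, 2.5 and 6.87 FPKM in tumour epithelial cells, against 0.0935, 0.253 and 0.447 in WT epithelial cells (2.13 ± 0.33, adjusted p = 0.00894), on a log2(value + 1) scale that understates a change from so low a level. No WT epithelial library reached 1 FPKM, so Elovl6 passed the filter through the tumour libraries alone, and its call is not independent of the filter. In both Ebp and Elovl6, replicate 11 was the highest tumour library.

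Lamp3 and Abca3 are 2 of the 4 alveolar type II genes not listed at 0 throughout either epithelial group. Among tumour libraries both were highest in replicate 10 and lowest in replicate 11, the order of the 9 lower genes. Ebp and Elovl6 ran the other way, and among WT libraries the 9 genes shared no single order. Lamp3 was at 368, 720 and 144 FPKM in tumour epithelial replicates 9, 10 and 11 and at 1125, 820 and 1212 in WT epithelial replicates 8, 9 and 10, and Abca3 at 145, 274 and 74.9 in tumour and 415, 269 and 399.9 in WT epithelial cells. The whole list of 8 genes overlapped between the groups, at sums of 2676 to 13530 FPKM in tumour and 5958 to 8381 in WT epithelial cells. Of these genes 2 (Sftpb and Sftpc) were at 0 in tumour and 4 (those and Sftpa1 and Slc34a2) at 0 in WT libraries. Type I genes, 6 of 6, summed to 529 to 1195 FPKM in tumour and 1403 to 1828 in WT epithelial cells, and 9 cell cycle genes to 91.0 to 144 in tumour and 20.0 to 26.0 in WT epithelial cells, with none at 0 in either list. The part of the cell make-up in the results for epithelial cells was not tested. The Epcam+ gate of tumour lung may hold HKP1 cells beside host epithelium, and the labels do not separate them. A change within host epithelium and a change of the cells collected therefore cannot be told apart here.

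**Figure D4:**
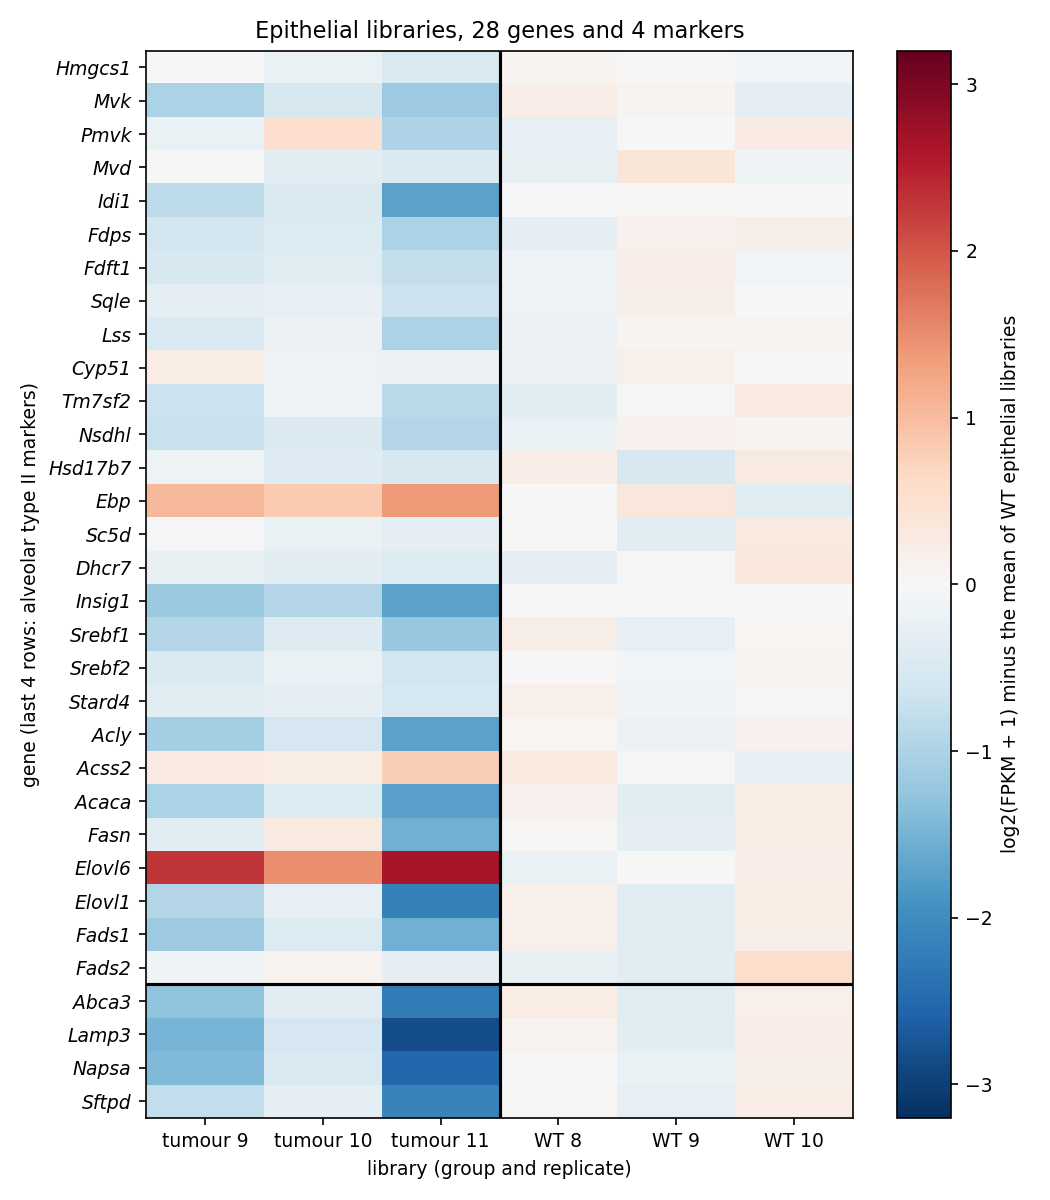
Log2(FPKM + 1) of 28 genes and 4 alveolar type II markers (rows) in the 6 epithelial libraries (columns, tumour left of WT), each minus the mean of the WT epithelial libraries. Red is higher and blue lower. The 4 markers are those of the list not at 0 throughout either epithelial group. Tumour replicate 11 is the bluest library for Idi1, Insig1, Acly, Elovl1 and the 4 markers and tumour replicate 10 the palest tumour library for them, while Ebp and Elovl6 are red in all 3 tumour libraries.

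Of the related lists in epithelial cells, beside the 14.9% of all genes higher and 8.86% lower, none of 10 other SREBP pathway genes was higher and 4 were lower. None of 18 fatty acid and glycerolipid genes passed. Of 16 fatty acid oxidation genes 3 were higher and none lower, led by Pparg (1.88). Of 12 genes of cholesterol uptake, storage and oxidation 2 were higher and 1 lower, with Lipa, the lysosomal acid lipase, higher (3.37) and Cd36 lower (-2.37). Of 10 LXR targets Lpcat3 was higher (0.52) and Pltp lower (-1.46). Alveolar macrophage genes, 6 of 10, summed to 34.7 to 163 FPKM in tumour and 8.33 to 27.3 in WT epithelial cells, and classical monocyte genes, 5 of 6, to 97.9 to 292 in tumour and 19.1 to 35.8 in WT epithelial cells, none at 0; their part in the Pparg and Lipa results was not tested.

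In unsorted total lung 4 of 29 genes were higher in tumour lung and 6 lower, beside 22.1% and 20.4% of the 11742 genes tested. Of the 16 sterol enzymes 3 were higher and none lower, and of the 9 fatty acid genes 1 was higher and 5 lower, with Srebf1 lower as well; the difference between the branches was not tested. Mvd had 27.1, 14.2 and 30.8 FPKM in tumour lung, against 9.19, 10.7 and 8.87 in WT lung (log2 change 1.17 ± 0.26, adjusted p = 0.00973). Ebp had 27.3, 26.5 and 27.4 FPKM in tumour lung, against 14.4, 15.0 and 13.3 in WT lung (0.88 ± 0.09, adjusted p = 0.00049). Fdft1 had 19.1, 14.3 and 22.1 FPKM in tumour lung, against 9.89, 12.5 and 7.99 in WT lung (0.81 ± 0.20, adjusted p = 0.0137), with Ctsb at 479 ± 138 FPKM in tumour and 79.1 ± 13.5 in WT lung. These 3 calls held under all 15 alternatives. Mvd lies on the strand opposite a larger gene model, Gm20388, with which it shares 9822 bases.

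Scd1 had 182, 27.7 and 65.3 FPKM in tumour lung, against 341, 443 and 265 in WT lung (log2 change -2.29 ± 0.59, adjusted p = 0.0173). Fasn had 27.1, 11.4 and 13.4 FPKM in tumour lung, against 39.8, 65.8 and 39.8 in WT lung (-1.49 ± 0.33, adjusted p = 0.0091). Elovl1 had 111, 43.4 and 53.2 FPKM in tumour lung, against 157, 218 and 128 in WT lung (-1.35 ± 0.35, adjusted p = 0.0171). Tumour replicate 12 was the highest of the 3 tumour libraries for each of these genes, and it also had the most alveolar type II RNA, whose 8 genes summed to 4958, 782 and 971 FPKM in tumour and 3556, 5305 and 3233 in WT lung (Sftpc was at 0 in WT lung). Its part was not tested.

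Acaca, the acetyl-CoA carboxylase that commits carbon to fatty acids, had 5.36, 3.31 and 4.78 FPKM in tumour lung, against 7.04, 9.92 and 7.17 in WT lung (log2 change -0.73 ± 0.19, adjusted p = 0.0175). Acss2 had 6.49, 9.04 and 10.1 FPKM in tumour lung, against 14.5, 13.4 and 12.2 in WT lung (-0.61 ± 0.16, adjusted p = 0.0189). Gss, which overlaps it on the other strand, went the other way here, at 44.5 ± 3.30 FPKM in tumour and 16.9 ± 2.64 in WT lung. Srebf1 had 25.4, 20.7 and 20.3 FPKM in tumour lung, against 33.8, 38.9 and 26.2 in WT lung (-0.54 ± 0.16, adjusted p = 0.0289). Elovl6, at 2.45 to 3.84 FPKM in tumour and 1.39 to 1.83 in WT lung, was higher. Leaving out WT replicate 12 left 1 lower gene, and leaving out WT replicate 11 or tumour replicate 14 left 3, whereas 8 genes were higher without tumour replicate 13.

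Around these genes in total lung, beside the 22.1% of all genes higher and 20.4% lower, 7 of 14 fatty acid oxidation genes were higher and none lower, with Pparg (1.84) and the carnitine carrier Slc25a20 (0.89) among them. Of 10 LXR targets 5 were higher and 3 lower, with Apoe at 3170 ± 884 FPKM in tumour and 407 ± 85.0 in WT lung (log2 change 2.94, adjusted p = 0.00025). Of 12 genes of cholesterol uptake, storage and oxidation 5 were higher and 3 lower, with Lipa higher (2.25) and Cd36 lower (-1.92). Of 18 fatty acid and glycerolipid genes 4 were higher and 3 lower, with Lpcat1, which remodels surfactant phospholipid, lower (-2.17), and Gpam, the first enzyme of glycerolipid synthesis, lower too (-1.88). Monocyte-derived macrophage genes summed to 1133 to 1806 FPKM in tumour and 151 to 202 in WT lung.

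Over the 5 tumour comparisons 5 genes passed as higher alone, 10 as lower alone and 7 in both directions in different cells, and 7 never passed (Hmgcs1, Sqle, Lss, Cyp51, Tm7sf2, Hsd17b7 and Stard4). The same tally was not made over all genes, so it describes these genes alone and is not a trait of the pathway. Ebp was higher in 3 preparations and Scd1 lower in 3. Whether the tumour effect differed was tested by an interaction between macrophages and neutrophils and between macrophages and epithelial cells. Against neutrophils 11 of 29 genes had a more positive change in macrophages and 5 a more negative one, beside 23.9% and 28.8% of all genes. Against epithelial cells the counts were 11 and 2 of 28, beside 13.9% and 17.3%. Without WT macrophage replicate 1 these counts were 7 and 3 against neutrophils and 4 and 2 against epithelial cells, and without WT macrophage replicate 2 they were 9 and 3 and then 7 and 1. Against epithelial cells the more positive genes numbered 5 without tumour macrophage replicate 1 or tumour epithelial replicate 11, and 6 without tumour macrophage replicate 2, tumour epithelial replicate 9 or WT epithelial replicate 10.

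The 7 genes that never passed were all on the sterol side, as are most of the genes followed here. Hmgcs1, the HMG-CoA synthase that opens the mevalonate arm, averaged 57.1 ± 9.45 FPKM in tumour and 67.3 ± 3.87 in WT epithelial cells, and 33.5 ± 0.713 FPKM in tumour and 29.7 ± 2.69 in WT macrophages (SD, n = 3 and 3, then 3 and 2). Sqle averaged 30.7 ± 4.86 FPKM in tumour and 41.3 ± 5.02 in WT epithelial cells, and Lss, which closes oxidosqualene into lanosterol, 13.9 ± 4.06 FPKM in tumour and 20.5 ± 2.25 in WT epithelial cells. The lanosterol demethylase Cyp51 averaged 22.2 ± 3.90 FPKM in tumour and 22.7 ± 2.99 in WT epithelial cells, and the sterol reductase Tm7sf2 13.1 ± 3.89 FPKM in tumour and 19.6 ± 4.35 in WT epithelial cells. Each of these 5 was lowest in a neutrophil group. Hsd17b7, a sterol ketone reductase, was low throughout, with 3.75 ± 0.625 FPKM in tumour and 5.23 ± 1.75 in WT epithelial cells. Stard4, which carries cholesterol through the cytosol, averaged 10.4 ± 1.07 FPKM in tumour and 14 ± 1.60 in WT epithelial cells and 7.55 ± 0.990 FPKM in tumour and 10.2 ± 1.41 in WT monocytes (n = 2 each).

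The widest difference from neutrophils was that of Sc5d, at 2.68 ± 0.20 on the log2 scale (adjusted p = 1.25e-06), the sum of a higher level in tumour macrophages and a lower one in tumour neutrophils. Mvk followed at 2.32 ± 0.26, Fads1 at 2.17 ± 0.29, Fads2 at 1.86 ± 0.35, Acss2 at 1.83 ± 0.28 and Srebf1 at -1.77 ± 0.20. From epithelial cells Fads1 differed most, at 3.28 ± 0.37, then Elovl6 at -2.80 ± 0.40, Fdft1 at 2.02 ± 0.25 and Insig1 at 1.88 ± 0.26. Insig1, Fads1 and Fdft1 each passed as higher in tumour macrophages and lower in tumour epithelial cells. The change of Scd1 was less negative in macrophages than in neutrophils by 1.54 ± 0.58 (adjusted p = 0.0437), a call lost under 12 of 19 alternatives, no filter and quantile normalization among them. Macrophage libraries enter both interactions, so the 2 sets of differences are not independent.

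**Figure D5:**
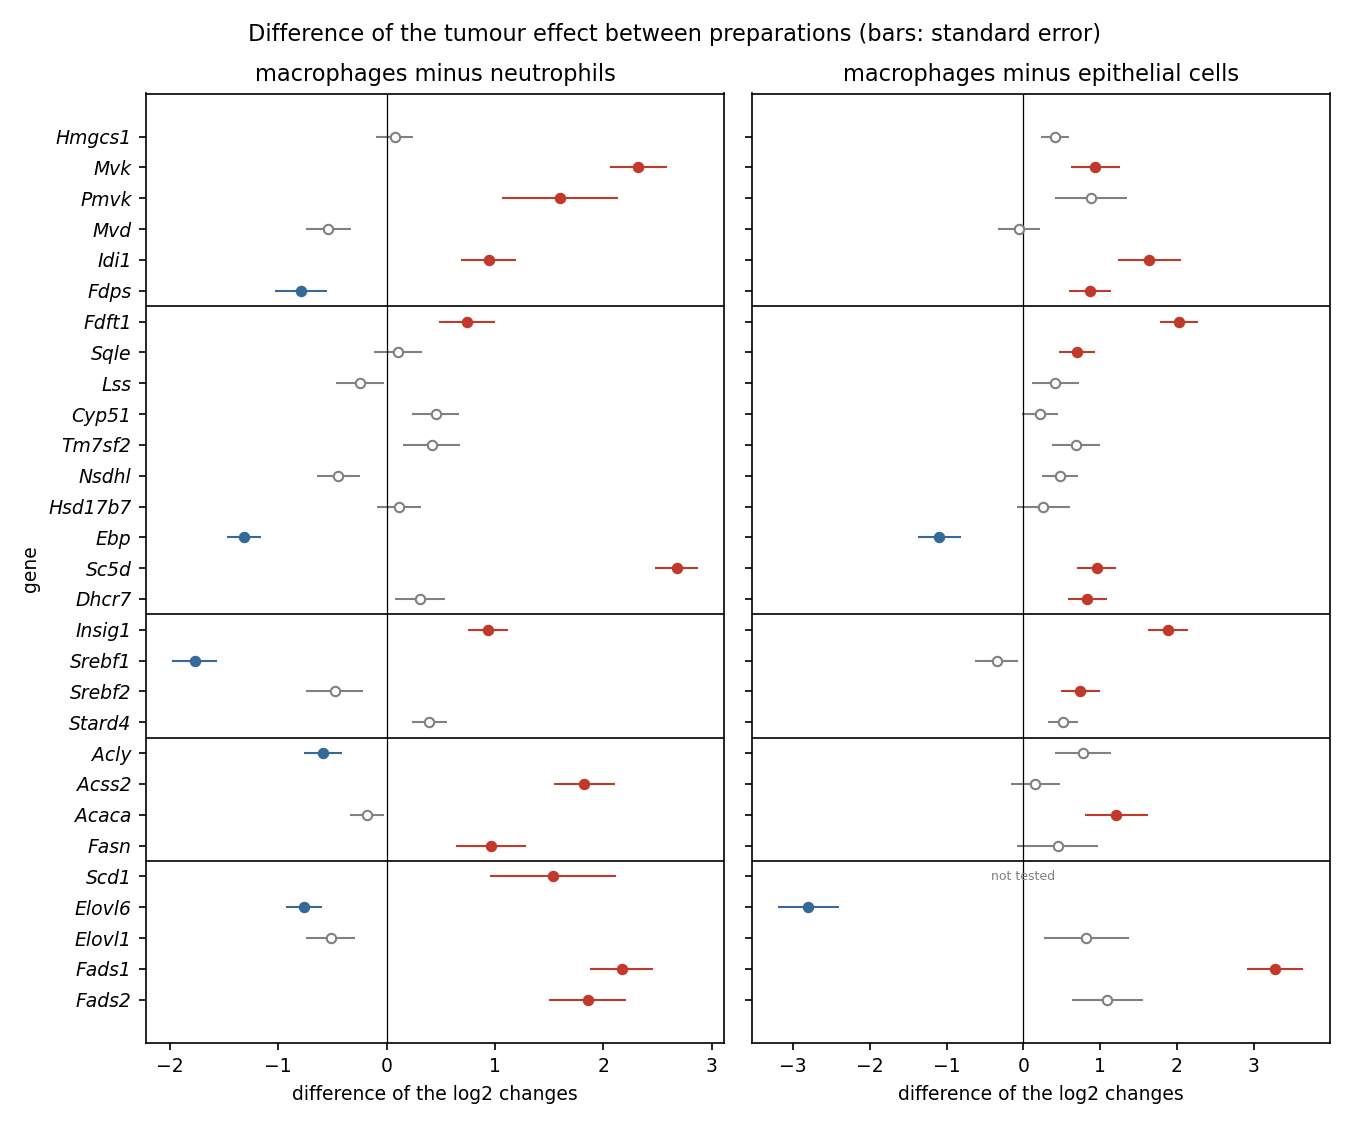
Difference of the log2 changes, the tumour effect in macrophages minus that in neutrophils (left) or in epithelial cells (right), with its standard error, for each gene; filled red points passed as more positive in macrophages and filled blue ones as more negative. Fads1, Mvk, Idi1, Fdft1, Sc5d and Insig1 are red in both panels, and Ebp and Elovl6 blue in both.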

How the data were processed

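RNA was sequenced from 27 libraries in 10 groups. The authors deposited FPKM per gene, made with CASAVA 1.8.2, TopHat2, Cufflinks and Cuffdiff on mm10/GRCm38, per the submitters' processing notes. Absolute depth is unknown from FPKM, so no counting intervals are given. Groups and replicate numbers came from the labels. The members and lists were chosen with earlier results of these data known.

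From the FPKM, log2(FPKM + 1) was fitted with limma 3.58.1 in R 4.3.3 (trend, empirical Bayes, two-sided) over genes that reached 1 FPKM in 2 or more libraries of the groups set against each other, and p-values were adjusted by Benjamini-Hochberg over all genes tested, with a threshold of 0.05. A gene could pass the filter of 1 FPKM through 1 group alone, as Elovl6 did in macrophages and epithelial cells. Fold changes understate low genes on this scale. A gene listed at 0 throughout 1 group with a mean of at least 5 FPKM in the other was treated as missing. The fit was tested on simulated data. Overlaps used GENCODE M21.

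Per step of the pathway, at most 3 called genes with a mean of at least 5 FPKM in the higher group and the largest changes are given in every library, and at most 2 per related list; genes outside this rule that are named, such as Fads2 and Srebf2 in macrophages, were chosen after their values were seen. Alternatives were pseudocounts of 0.1 and 5 FPKM, a filter of 5 FPKM or none, upper-quartile scaling, quantile normalization, genes at 0 kept, a fit of all 10 groups, a replicate block and each library left out. Values of some genes of the related lists are not reported here.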

Additional observations from a re-analysis of the deposited data

Results flagged for a closer look

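The tumour effect in macrophages differed from that in neutrophils, by an interaction term in limma with a Benjamini-Hochberg adjusted p under 0.05, for 16 genes, and from that in epithelial cells for 13. Each value is a difference of log2 changes, macrophages minus the other cells. In the mevalonate arm, macrophages minus neutrophils gave 2.32 for Mvk, 1.60 for Pmvk, 0.94 for Idi1 and -0.79 for Fdps. After squalene it gave 0.74 for Fdft1, -1.32 for Ebp and 2.68 for Sc5d. Among the regulators it gave 0.94 for Insig1 and -1.77 for Srebf1. In the fatty acid branch it gave -0.58 for Acly, 1.83 for Acss2, 0.96 for Fasn, 1.54 for Scd1, -0.76 for Elovl6, 2.17 for Fads1 and 1.86 for Fads2. Elovl6 passed the filter there through WT macrophages alone.

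Macrophages minus epithelial cells gave 0.94 for Mvk, 1.64 for Idi1 and 0.86 for Fdps in the mevalonate arm. After squalene it gave 2.02 for Fdft1, 0.70 for Sqle, -1.10 for Ebp, 0.95 for Sc5d and 0.83 for Dhcr7. It gave 1.88 for Insig1 and 0.74 for Srebf2, and in the fatty acid branch 1.21 for Acaca, -2.80 for Elovl6 and 3.28 for Fads1. Both sets use the same macrophage libraries, and the macrophage gates of tumour and WT lung differ in CD11b. The epithelial gate of tumour lung may hold HKP1 cells as well.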

How the results depend on the processing

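The number of lower genes in tumour epithelial cells, 9 as reported, was 3 with no filter, 4 after upper-quartile scaling, 15 in a fit of all 10 groups and 0 under the replicate block, and ran from 1 to 14 with 1 library left out; the 2 higher genes were 0 under the replicate block and 1 to 2 with 1 library left out. With 1 library left out, the higher and lower counts ran from 2 to 9 and from 2 to 6 in macrophages, the higher count from 5 to 8 in neutrophils, and the higher and lower counts from 3 to 8 and from 1 to 8 in total lung. WT macrophages had 1 gene higher than WT epithelial cells with a filter of 5 FPKM and 0 to 3 with 1 library left out. For the interaction with neutrophils the more positive genes numbered 7 with no filter and 7 to 11 with 1 library left out, and the more negative ones 8 after quantile normalization, 3 in a fit of all 10 groups and 3 to 7 with 1 library left out. For that with epithelial cells the more positive genes numbered 6 with no filter, 6 after quantile normalization, 5 after upper-quartile scaling and 4 to 16 with 1 library left out, and the more negative ones 1 to 2. Between WT macrophages and WT neutrophils, Fads1 (-0.15) and Stard4 (-0.030) reversed after quantile normalization. The causes were not tested, beyond the fewer libraries in a leave-one-out fit or replicate block.

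Title numbers shared by tumour and WT libraries gave correlations of -0.16 to 0.08 and did not pair them; with the replicate block 8 and 6 genes were higher and lower in macrophages, 4 and 6 in neutrophils and 3 and 4 in total lung, and monocytes share 1 number only. Where 1 library was left in a group it was assumed to vary like the other groups. Calls kept under every alternative numbered 4 of 10 in macrophages, 10 of 12 in neutrophils, 0 of 11 in epithelial cells and 4 of 10 in total lung. Upper-quartile scaling moved the median interaction over all genes to -0.19 against epithelial cells.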
